A study of Mus musculus with 10 samples.

Results

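Transcripts of 9 G protein-coupled receptors were followed in collecting duct cells with and without Camk2d. The receptors were Avpr2 and Avpr1a (vasopressin), P2ry2 (extracellular ATP and UTP), Adora2b (adenosine), Ednra and Ednrb (endothelins), Casr (extracellular calcium), Calcr (calcitonin) and Bdkrb2 (bradykinin). They were taken by gene symbol from a table of 55414 genes, and each symbol matched 1 gene. Of the 9, 5 were above 0 in at least 1 sample, and 4 were among the 20000 genes with the highest mean level, which were the genes tested. Avpr2 was abundant in every cell line, P2ry2 was present at a lower and even level, and the other 7 averaged less than 1 TPM, a unit of transcript abundance explained with the levels.

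The cells were mpkCCDc11-38, an immortalized mouse line with features of cortical collecting duct principal cells. All 10 samples had been grown with dDAVP, a vasopressin analog selective for the V2 receptor, at 0.1 nM for 7 days, and there was no sample without dDAVP. Camk2d encodes the delta isoform of calcium/calmodulin-dependent protein kinase 2. The Camk2d KO group held 5 single-cell-derived CRISPR-Cas9 clones with 1 sample each. The Camk2d-intact group held the parental line (1 sample) and 2 samples of each of 2 clones that went through transfection but kept CAMK2D, so its 5 samples represent 3 cell lines. The study's mutation table assigns the exon 8 guide to KO 1 and KO 2, and the other clones to an exon 9 guide. The sample labels do not give the guide, and no test was made by guide. Each KO sample is 1 clone, so the deletion and the history of that clone cannot be told apart within a sample.

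Vasopressin acts on the principal cell through the V2 receptor, which couples to Gs, raises cyclic AMP, and leads to insertion of the water channel aquaporin-2 in the apical membrane and to transcription of Aqp2. Other receptors of the collecting duct oppose or adjust this response. P2Y2, endothelin, bradykinin and calcium-sensing receptors couple to Gq or Gi and mobilise calcium, the activator of calmodulin and thereby of CAMK2. The V1a vasopressin receptor is known in the kidney mainly from vessels and intercalated cells, and the calcitonin receptor from the thick limb and distal nephron.

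Levels are given as TPM, which scale the reads of a gene by its length, so they can be compared between genes. TPM sum to the same total in every sample and keep no record of depth. The depth of each sample is therefore unknown. A gene with a value of 0 is described as listed at 0, and since values have 2 decimals it may still have had reads. Camk2d itself was 122.68 to 141.28 TPM in intact samples and 19.76 to 29.76 TPM in KO samples, as labelled. Of 10 principal cell markers, 8 averaged at least 1 TPM, with Gata3 at 240.44 to 280.24 TPM and Fxyd4 at 194.21 to 848.59 TPM. The lowest of these 8 in mean level were Aqp3 (1.1 to 3.34 TPM) and Aqp4 (0.07 to 8.54 TPM). Scnn1b and Kcnj1 stayed under 1 TPM. All 4 endothelial, all 5 mural and stromal and all 4 distal convoluted tubule markers were under 1 TPM in every sample. So were the markers of the other cell types examined, except Aqp6 (intercalated cell, 0.64 to 7.11 TPM), Kcnj10 (thick ascending limb, 0.32 to 1.73 TPM), Lrp2 (proximal tubule, 6.51 to 14.91 TPM) and Cd68 (leukocytes, 3.51 to 9.05 TPM). Across genes, the median Pearson's r with the other 9 samples was 0.967 for KO 2 and 0.972 for KO 1. It was 0.976 to 0.979 for the remaining samples, so KO 2, and to a lesser degree KO 1, stood slightly apart.

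Avpr2 (ENSMUSG00000031390, chrX:73892102-73895502 on the plus strand in GENCODE M21, GRCm38) encodes the V2 receptor, the target of the dDAVP in the medium. It was 235.11 TPM in the parental line, 238.29 and 251.77 TPM in the samples of intact clone 1, and 222.44 and 227.59 TPM in those of intact clone 2. In the KO clones it was 192.48 TPM in KO 1, 114.19 TPM in KO 2, 264.44 TPM in KO 3, 229.46 TPM in KO 4 and 224.17 TPM in KO 5. KO 1 and KO 2 lay below every intact sample, KO 3 lay above every intact sample, and KO 4 and KO 5 lay within the intact range, so the groups overlapped. The mean was 235 ± 11.2 TPM (SD, n = 5) in intact and 205 ± 56.8 TPM (SD, n = 5) in KO samples, the latter 87.2% of the former. The SD was 4.78% of the mean in intact samples and 27.7% in KO samples, a difference that was described and not tested. Without KO 2 it was 12.9% in the remaining 4 KO clones. The intact samples share cell lines, whereas each KO sample is its own clone.

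The difference in Avpr2 between KO and intact samples, on the log2(TPM + 1) scale, was -0.25 with an SE of 0.19 and a 95% interval from -0.66 to 0.16. Its adjusted p in limma was 0.820, and an exact two-sided permutation test over every arrangement of the 10 samples gave p = 0.302. The spread between clones was larger than the difference between group means. The size depended on single clones. Without KO 2 the log2 difference was -0.05, with an adjusted p of 0.897 in limma and an exact p of 0.603. Without KO 3 it was -0.35, with an adjusted p of 0.718 and an exact p of 0.0794.

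**Figure D1:**
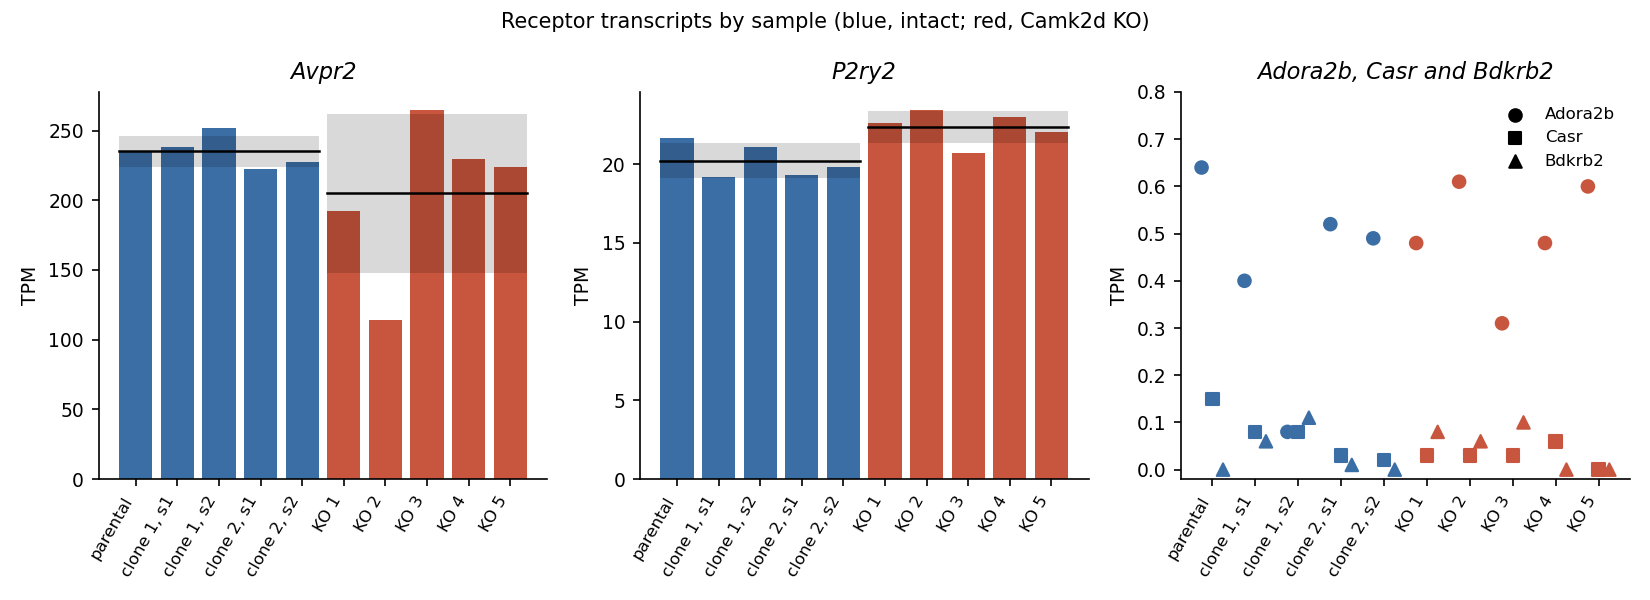
TPM of each detected receptor in the 10 samples, with intact samples in blue and Camk2d KO samples in red (s1 and s2 are the samples of an intact clone). In the panels for Avpr2 and P2ry2 the line is the group mean and the grey band 1 SD (n = 5). Avpr2 dips to 114.19 TPM in KO 2, P2ry2 stays between 19.18 and 23.42 TPM, and Adora2b, Casr and Bdkrb2 stay under 0.65 TPM.

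Avpr2 was among the well expressed genes of every sample, ranking between 735th and 2231st from the highest, the latter in KO 2. It supplied 82.6% to 92.6% of the summed TPM of the 9 receptors. Ordered by cell line, its level rose from KO 2 through KO 1, KO 5, intact clone 2, KO 4, the parental line and intact clone 1 to KO 3. The 4 lines from KO 5 to the parental line lay between 224.17 and 235.11 TPM, a gap smaller than the 13.48 TPM between the samples of intact clone 1. Among the 1898 genes within 2-fold of its mean level, 98.2% had an equal or smaller SD over the 8 cell lines. Its SD on the log2 scale was 0.38, against a median of 0.11 for those genes. Without KO 2, its SD over 7 lines was 0.14, against a median of 0.09, and 80.1% of those genes had an equal or smaller SD.

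A limma F test asked whether any of the 8 cell lines differed from another, with the spread estimated from the 2 pairs of intact samples. It called 3.6% of the 20000 genes. Avpr2 was the 1 of the 4 tested receptors called, with an adjusted p of 0.0457, close to the threshold of 0.05. Of 17 tested receptors outside the 9, 1 was called as well, Ptger1, an EP1 prostaglandin receptor gene, with an adjusted p of 0.0480. The call of Avpr2 rested on both pairs of samples and on the trend in the variance. Without the trend, the adjusted p was 0.0699. With 1 of the paired samples left out in turn, a step chosen after seeing the data, the adjusted p was 0.164 to 0.182 and no gene of the table was called. Intact clone 2 and intact clone 1 differed by -0.12 on the log2 scale for Avpr2, with an adjusted p of 0.289 in limma.

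P2ry2 (ENSMUSG00000032860, chr7:100996568-101012866 on the minus strand) encodes the P2Y2 receptor, through which ATP and UTP outside the cell lower water permeability in the collecting duct. It was 21.69 TPM in the parental line, 19.18 and 21.09 TPM in intact clone 1, and 19.3 and 19.83 TPM in intact clone 2. In the KO clones it was 22.61 TPM in KO 1, 23.42 TPM in KO 2, 20.74 TPM in KO 3, 23.01 TPM in KO 4 and 22.04 TPM in KO 5. Of the 5 KO clones, 4 lay above the highest intact sample and KO 3 lay within the intact range. The mean was 20.2 ± 1.12 TPM (SD, n = 5) in intact and 22.4 ± 1.04 TPM (SD, n = 5) in KO samples.

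The difference in P2ry2 on the log2 scale was 0.14 with an SE of 0.06 and a 95% interval from 0.01 to 0.26, so it was small. Its unadjusted p in limma was 0.0315 and its adjusted p 0.676, which does not pass the threshold. This fit and its interval count the 2 samples of an intact clone as separate. With 1 value per cell line the log2 difference was 0.12, with an adjusted p of 0.998 in limma. The exact two-sided permutation test of P2ry2 alone gave p = 0.0317, before any adjustment for the 5 receptors tested in this way. With 1 value per cell line, 5 KO lines against 3 intact lines, the exact p was 0.0714, where the smallest that the 56 arrangements allow is 0.0357. With 1 sample left out in turn, the exact p was 0.0159 to 0.0635. It was 0.0635 without the first sample of intact clone 1, without either sample of intact clone 2, and without KO 1, KO 2 or KO 4. P2ry2 varied little between lines. Among the 4001 genes within 2-fold of its mean level, 15.3% had an equal or smaller SD over the cell lines, and the F test among lines gave an adjusted p of 0.368 in limma.

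Avpr2 and P2ry2 moved apart in KO 2, where Avpr2 had its lowest and P2ry2 its highest level. The ratio of Avpr2 to P2ry2 was 10.8 to 12.4 in intact samples. In the KO clones it was 8.51 in KO 1, 4.88 in KO 2, 12.8 in KO 3, 9.97 in KO 4 and 10.2 in KO 5. So 4 KO clones lay below the intact range and KO 3 above it, as a description with no test.

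Adora2b (ENSMUSG00000018500) encodes the low-affinity A2B adenosine receptor, which couples to Gs. It was 0.64 TPM in the parental line, 0.4 and 0.08 TPM in intact clone 1, and 0.52 and 0.49 TPM in intact clone 2. In KO 1 to KO 5 it was 0.48, 0.61, 0.31, 0.48 and 0.6 TPM in that order, all within the intact range. The samples of intact clone 1 differed from each other more than any 2 KO clones did. The log2 difference was 0.08 with a 95% interval from -0.17 to 0.33 and an adjusted p of 0.898 in limma. On this scale the change of genes with few TPM is understated.

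Casr (ENSMUSG00000051980) encodes the calcium-sensing receptor, known in the thick limb and on the apical side of the inner medullary collecting duct. It was 0.15 TPM in the parental line, 0.08 TPM in both samples of intact clone 1, and 0.03 and 0.02 TPM in intact clone 2. In the KO clones it was 0.03 TPM in KO 1, KO 2 and KO 3, 0.06 TPM in KO 4 and listed at 0 in KO 5. The groups overlapped, and the adjusted p in limma was 0.820. Casr, with a mean of 0.051 TPM, lay just inside the genes tested, whose lowest mean was 0.049 TPM. At these levels the table's 2 decimals leave only a few steps between samples.

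Bdkrb2 (ENSMUSG00000021070), the B2 bradykinin receptor, lay just outside the tested genes with a mean of 0.042 TPM. It was listed at 0 in 4 samples, namely the parental line, the second sample of intact clone 2, KO 4 and KO 5. Elsewhere it was 0.01 to 0.11 TPM, with both the highest intact and the highest KO value at or above 0.1 TPM. An exact permutation test of KO against intact gave p = 0.794.

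The remaining 4 receptors were listed at 0 in all 10 samples. They were Avpr1a, the V1a vasopressin receptor, both endothelin receptors, Ednra and Ednrb, and Calcr. In the whole table, 53.0% of genes were listed at 0 throughout. Since the depth is unknown, 0 does not show that these receptors were absent, and no difference between KO and intact cells could be measured for them. The other vasopressin-family receptors were likewise low. Avpr1b was 0.03 TPM in 1 sample and listed at 0 in the rest, and Oxtr, the oxytocin receptor, did not exceed 0.06 TPM.

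In the comparison of KO with intact samples, limma called 0 of the 4 tested receptors at an adjusted p under 0.05, against 0.005% of all 20000 genes (Camk2d alone). At an unadjusted p under 0.05 it was 1 of the 4, P2ry2, against 6.99% of all genes tested. That share, 1398 genes, counts the 2 samples of an intact clone as separate. With 1 value per cell line, 762 of the 20000 genes had an unadjusted p under 0.05 in limma. The median log2 difference of the 4 was 0.01, beside 0.02 over all genes tested. None of the 4 had KO and intact samples that did not overlap, which held for 1.64% of the genes tested (1.2% with every KO sample higher and 0.445% with every KO sample lower). The 95% intervals of the 4 receptors together spanned -0.66 to 0.33 with a pseudocount of 1. With a pseudocount of 0.1 the differences of the low genes Adora2b and Casr were larger, 0.30 and -0.37, with adjusted p-values of 0.884 and 0.828 in limma.

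**Figure D2:**
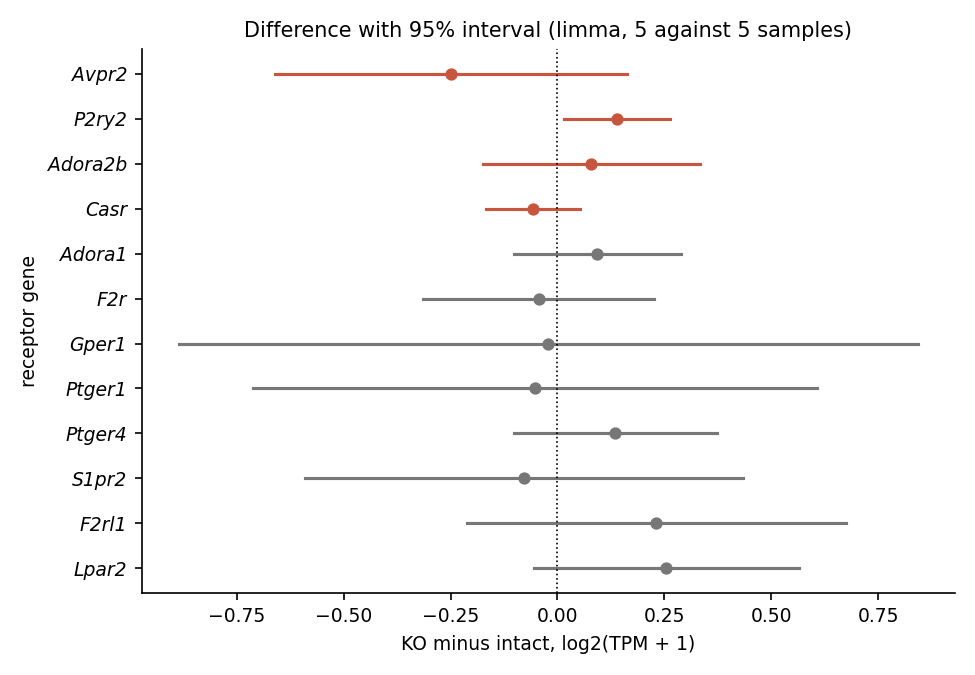
KO minus intact difference on the log2(TPM + 1) scale, with its 95% interval from limma (5 against 5 samples), for the 4 tested receptors (red) and 8 other receptors that averaged at least 1 TPM (grey). The interval of Avpr2 runs from -0.66 to 0.16 and includes 0, and that of P2ry2 runs from 0.01 to 0.26 before adjustment. These intervals count the 2 samples of an intact clone as separate.

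Avpr2 was also set beside 46 other receptors for hormones, nucleotides and lipids. Of all 55 receptors, 10 averaged at least 1 TPM, and 22 were listed at 0 in every sample. Avpr2 had the highest mean level, 220 TPM, and P2ry2 the sixth, 21.3 TPM. Between them came Adora1 (A1 adenosine receptor, Gi-coupled) at 87.91 to 125.24 TPM, F2r (thrombin receptor) at 45.88 to 70.45 TPM, Gper1 (a membrane oestrogen receptor) at 13.91 to 89.65 TPM and Ptger1 (EP1 prostaglandin receptor) at 14.26 to 52.27 TPM. This order is that of the means, and the ranges of neighbours overlapped except those of Adora1 and F2r. Avpr2 was the highest of the 55 in 9 samples, and in KO 2 it lay below Adora1, which was 125.24 TPM there. P2ry2 lay above Ptger1 in 1 sample and above Gper1 in 1 sample. In KO 2 Avpr2 supplied 22.2% of the summed TPM of the 55 receptors, against 42.6% to 47.4% in the other samples.

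**Figure D3:**
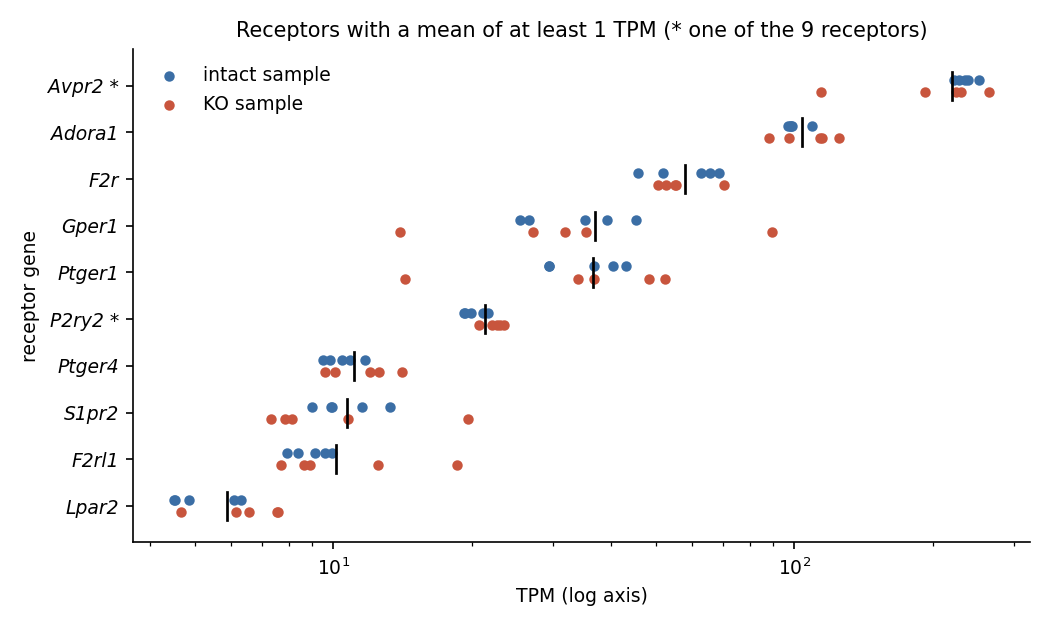
TPM on a log axis of the 10 receptors that averaged at least 1 TPM, with 1 point per sample (blue, intact, and red, KO) and the mean of all samples as a black line. Avpr2 has the highest mean, but its lone point at 114.19 TPM (KO 2) lies below the highest Adora1 point, and P2ry2 has the tightest points.

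Of these 46 receptors, 17 were tested, and limma called 0 of them, with 0 at an unadjusted p under 0.05 (6.99% of all genes tested). By direction, 8 of the 17 had a log2 difference above 0 and 9 below, with a median of -0.004. Adora1 had a log2 difference of 0.09 (adjusted p 0.821), F2r of -0.04 (adjusted p 0.955) and Gper1 of -0.02 (adjusted p 0.998).

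On the ligand side, the genes for vasopressin (Avp) and endothelin-3 (Edn3) were listed at 0 in all samples. Edn1, the precursor of endothelin-1, was 3.97 to 7.05 TPM although both of its receptors were listed at 0. Entpd2, an ectonucleotidase that degrades the ATP seen by P2Y2, was 9.87 to 15.68 TPM. Of 25 genes for ligands, processing enzymes and receptor accessory proteins, 17 were tested, 0 were called between KO and intact cells by limma, and 1 (Adm2) had an unadjusted p under 0.05, a share near the 6.99% of all genes tested. The most abundant were Ramp2 and Ramp1, accessory proteins that pair with Calcr and its relative, and Mme, a peptidase that degrades endothelin and bradykinin. Their log2 differences were 0.31, -0.13 and 0.04, with adjusted p-values of 0.837, 0.857 and 0.993 in limma.

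Panx1, a channel that releases ATP, and Ramp3, which were singled out after their values were seen, stood at different levels in the intact clones. Panx1 was 1.57 and 1.56 TPM in intact clone 1 and 9.08 and 7.01 TPM in intact clone 2, a log2 difference of 1.81 with an adjusted p of 0.0966 in limma. Ramp3 was 0.9 and 0.47 TPM in intact clone 1 and 5.7 and 6.29 TPM in intact clone 2, a log2 difference of 2.06 with an adjusted p of 0.0970. Neither passed the threshold, which 0.025% of the genes tested did. P2ry2 itself differed by -0.04 between these clones, with an adjusted p of 0.815.

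Downstream of the receptors, 0 of 11 tested genes for G protein alpha subunits and phospholipase C beta were called by limma, and 0 had an unadjusted p under 0.05. Gnas, which encodes the Gs subunit to which the V2 receptor couples, had a log2 difference of 0.07 (adjusted p 0.778). Gnai2 and Gnai3, which encode Gi subunits, had log2 differences of 0.16 (adjusted p 0.806) and -0.06 (adjusted p 0.820). Of 12 tested genes for receptor kinases, arrestins and RGS proteins, which end receptor signalling, 0 were called and 2 had an unadjusted p under 0.05, Grk2 and Arrb2, where 6.99% of all genes tested did. Grk2 had a log2 difference of 0.22 (adjusted p 0.675) and Arrb2, named after its values were seen, of 0.27 (adjusted p 0.594). Grk6 and Rgs19 had log2 differences of 0.11 (adjusted p 0.769) and -0.01 (adjusted p 0.992).

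Since the V2 receptor drives Aqp2, the values of both genes are set side by side. Aqp2 was 3773.21 to 5502.48 TPM in intact samples, and 1281.18 TPM in KO 1, 1617.99 TPM in KO 2, 3788.6 TPM in KO 3, 2879.72 TPM in KO 4 and 2856.14 TPM in KO 5. KO 1 and KO 2 were lowest for both genes, but Avpr2 was lower in KO 2 and Aqp2 in KO 1. KO 4 and KO 5 had Avpr2 within the intact range and Aqp2 below it. Aqp2 differed by -0.89 on the log2 scale, with an adjusted p of 0.565 in limma. Over the 8 cell lines, Pearson's r of Avpr2 and Aqp2 on the log2 scale was 0.69 and Spearman's rank correlation 0.69. The size of r depended on the lines included. It was 0.24 over the 6 lines left without KO 1 and KO 2, the farthest from the median of Avpr2 on the log2 scale and the lowest for both genes. It was 0.88 without KO 2 and KO 3, the farthest in TPM, a choice added after seeing the data. KO 1 and KO 2 are also the clones that the study's mutation table assigns to the exon 8 guide, and no test was made by guide. Of the 10 principal cell markers, KO 2 had the lowest level of 2, the highest of 2 and neither for 6, Aqp2 and Gata3 among them. Its lowest were Fxyd4, which encodes a regulator of the sodium pump, at 194.21 TPM and the sodium channel gene Scnn1a at 141.2 TPM. Its highest were Hsd11b2, which inactivates glucocorticoids, at 114.93 TPM and Scnn1b at 0.39 TPM. The leukocyte marker Cd68 was also highest in KO 2, at 9.05 TPM against at most 5.54 TPM in the other samples. Over the 8 lines r of Avpr2 and Fxyd4 was 0.96, and 0.18 without KO 1 and KO 2.

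Avpr2 shares its place with another gene, Arhgap4, on the opposite strand. In GENCODE M21, 2347 of the 2886 exonic bases of Avpr2 lie in an Arhgap4 exon on the other strand. Of these, 612 remain when the single Arhgap4 transcript with the longest last exon is set aside. The protocols used here describe no strand step, and without strand the reads of such bases cannot be told apart. Arhgap4 was 7.9 to 9.8 TPM in intact samples and 7.3, 4.97, 10.08, 10.28 and 8.3 TPM in KO 1 to KO 5. It was thus far less abundant than Avpr2, and lowest in KO 2 too. Over the 8 cell lines, r of Avpr2 and Arhgap4 was 0.96, 0.60 over the 6 lines without KO 1 and KO 2, and 0.77 without KO 2 and KO 3. The part that shared reads play in this was not tested. The next gene, L1cam, overlaps Avpr2 in position but shares 0 exonic bases with it.

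**Figure D4:**
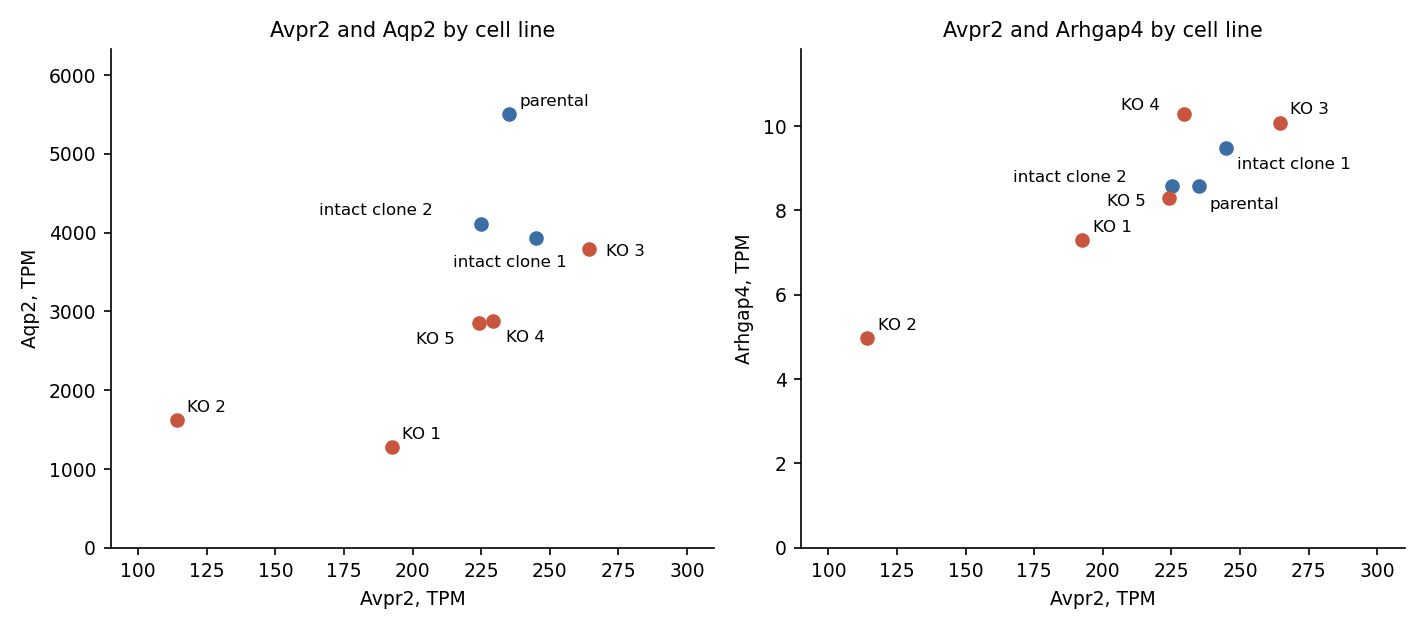
Avpr2 TPM (horizontal) against Aqp2 and Arhgap4 TPM (vertical) in the 8 cell lines, with the mean of both samples for each intact clone (blue, intact, and red, KO). KO 1 and KO 2 are lowest for Avpr2 in both panels, and KO 4 and KO 5 sit beside the intact lines for Avpr2 (KO 5 at 224.17 TPM, just under intact clone 2) with less Aqp2 than any intact line.

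The genes with the pattern over the 8 cell lines most like that of Avpr2 were sought among 13046 others that averaged at least 1 TPM. They were 4933434E20Rik (Pearson's r 0.98), Ndufb5 (r 0.98) and Car5b (r 0.98). All were lowest in KO 2. Ndufb5, a subunit of mitochondrial complex I, was 176 TPM in KO 2 and 218 to 242 TPM in the other lines, a smaller range than that of Avpr2. For P2ry2 the most alike were Dpp9 (r 0.97), Vat1 (r 0.96) and Rfx3 (r 0.96). Dpp9, a dipeptidyl peptidase, was 57.4 TPM in KO 2, its highest level, and lowest in intact clone 2, as P2ry2 was. These correlations describe 8 points that share 1 table, and the highest of so many comparisons are high by selection.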

How the data were processed

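RNA was measured in 10 mpkCCD samples. Per the study's methods, cDNA was amplified, fragmented and sequenced as 50-bp pairs. STAR and RSEM were run with Ensembl release 106 annotation of the mouse. The authors deposited TPM per Ensembl gene with 2 decimals, 1 column per sample, and 0 columns were left unused. The authors' count-based comparison was not used here. Depth is unknown, so no counting interval is given.

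Groups came from the sample labels. Whether the paired samples of an intact clone were separate cultures is not stated in the sources used here, so p-values measure the spread between these samples, which may in part be technical. Of 13047 genes averaging at least 1 TPM, 1.37% (intact clone 1) and 1.46% (intact clone 2) had the same value in both samples, so neither sample copied the other.

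Tests used limma 3.58.1 (R 4.3.3) with a variance trend on log2(TPM + 1) of the 20000 genes highest in mean TPM. Adjustment was by Benjamini-Hochberg over those genes, and an adjusted p under 0.05 was called. The first fit compared 5 KO with 5 intact samples, and a second fit compared the 8 cell lines. Single receptors were tested by exact permutation (scipy 1.17.1). On simulated data with 200 of 20000 genes changed, the KO against intact fit recovered 91.5% at a log2 change of 1 and 98.5% at 2. The fit of cell lines recovered 16.5% at a log2 change of 2 in 1 line. For the first fit, every simulated sample was independent and had the spread of the intact samples. Real KO clones can spread more, as for Avpr2 (SD 27.7% of the mean against 4.78%), so 91.5% and 98.5% may overstate the recovery here.

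The receptors and gene lists were chosen with earlier results of these data known. By the naming rule, all 9 receptors are given. From each pathway list come genes past the threshold or without overlap between groups and a mean of at least 1 TPM, otherwise the 3 most abundant, and for receptors averaging at least 1 TPM the 3 genes most alike over cell lines. Positions come from GENCODE M21 on GRCm38, a different annotation from the authors'. Alternatives were pseudocounts of 0.1 and 0.5, other gene filters, median-of-ratios and quantile scaling, no trend, robust moderation, a random effect of cell line (statmod 1.5.0), 1 value for each line and leaving out each sample.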

Additional observations from a re-analysis of the deposited data

Results flagged for a closer look

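In 5 of 44 groups of 5 samples that were screened (26 genes), 1 sample was far from the other 4, with a gap above 0.71 of the group's range. For 5 independent samples, chance alone gives about 1 in 20. The intact group holds 2 pairs of samples from the same clones, so this rate does not hold for it. None of the 5 was one of the 9 receptors. The screen did not cover every gene given here, so the 5 are not a full list. Fxyd4, not among the 5, was 194.21 TPM in KO 2 and 588.19 to 736.79 TPM in the other KO clones. Edn1, also not among them, was 7.05 TPM in KO 2 and 3.97 to 4.55 TPM in the other KO clones. Adora1 was 109.4 TPM in the parental line and 96.68 to 99.07 TPM in the other intact samples. F2r was 70.45 TPM in KO 1 and 50.71 to 55.32 TPM in the other KO clones. Gper1 was 89.65 TPM in KO 2 and 13.91 to 35.25 TPM in the others. Mme was 40.24 TPM in KO 1 and 6.12 to 14.87 TPM in the others. Gnai2 was 535.66 TPM in KO 2 and 345.94 to 367.68 TPM in the others. The low Avpr2 level of KO 2 did not meet this limit.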

How the results depend on the processing

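Under all 20 alternatives limma called 0 of the tested receptors between KO and intact samples, Avpr2 kept a negative difference (-0.35 to -0.05) and P2ry2 a positive one (0.10 to 0.17). The count over all genes was 1, and 2 with a pseudocount of 0.1, without the parental sample or without KO 2 (1 to 2 with a sample left out). With a pseudocount of 0.1 the difference of Adora2b was 0.30 and that of Casr -0.37, against 0.08 and -0.06. With a sample left out, the difference of Adora2b ranged from -0.017 (without the second sample of intact clone 1) to 0.13, and that of Casr from -0.07 to -0.03 (the latter without the parental sample). The exact p of P2ry2 was 0.0714 with 1 value per cell line and 0.0159 to 0.0635 with a sample left out. With a sample left out, that of Avpr2 was 0.0794 to 0.603 and that of Casr 0.0794 to 0.254. That of Bdkrb2 ranged from 0.397 to 1 (1 without KO 3, with the sign turned) and that of Adora2b from 0.365 to 0.810 (0.810 without the second sample of intact clone 1, with the sign turned).

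The F test among lines called 719 genes, 3448 with all genes above 0, 452 without the trend, 1201 with robust moderation and 0 with a paired sample left out (4580 to 4645 at an unadjusted p under 0.05). Receptors called were 1, then 2 with all genes above 0 (Casr was added, with an adjusted p of 0.0324), 0 without the trend and 0 with a paired sample left out. Between the intact clones 5 genes were called, 1 with either other pseudocount, 2 with all genes above 0, 243 with a mean of at least 1 TPM, 11 without the trend, 191 with robust moderation and 0 with a sample left out. With a sample left out, P2ry2 differed between them by -0.10 to 0.027, the latter without the second sample of intact clone 1. The causes were not tested. With a paired sample left out, fewer samples estimate the spread. No paired analysis was possible because the clone numbers of KO and intact lines name unrelated clones. Depth is not known, so it is not known which levels near 0 are distinguishable.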
